A study of Saccharomyces cerevisiae with 176 samples.

Results

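The 10 genes described here encode enzymes with which budding yeast removes superoxide and peroxides: the superoxide dismutases SOD1 (YJR104C) and SOD2 (YHR008C), the catalases CTT1 (YGR088W) and CTA1 (YDR256C), the peroxiredoxins TSA1 (YML028W) and TSA2 (YDR453C), the thioredoxin TRX2 (YGR209C), the glutathione peroxidase-like enzymes GPX1 (YKL026C) and GPX2 (YBR244W), and the cytochrome c peroxidase CCP1 (YKR066C). They were chosen by name and are 10 of the 6692 genes of a table of RNA sequencing values over 176 libraries in 81 groups. TRX2 is the exception to the catalases, dismutases and peroxidases: it encodes a thioredoxin, which returns oxidised peroxiredoxins to their reduced form.

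The study examined gene expression in aneuploid and euploid Saccharomyces cerevisiae under several ways of growth. Aneuploid S288C strains, named with an A and a number, were grown exponentially in YEPD with 2% glucose at 25 °C in 6 experiments, exp1 to exp6, and a euploid strain labelled 2N was included in exp1, exp2 and exp3. Aneuploid strains and 2N were also kept at steady state in a phosphate-limited chemostat at a dilution rate of 0.17 per hour. Pooled aneuploid populations, the haploid progeny of triploids, and pooled euploid populations, the progeny of diploids, were prepared by a "Tsai" and a "dilution" protocol beside an exponentially growing haploid WT, strain A2050. The diploids and triploids carried pRS315-STE2pr-spHIS5, and each population library holds many segregants pooled. The same WT was followed for 26 h at 25 °C with 2 libraries every 2 h by the titles, which were followed although the codes of the last 2 libraries name 28 h, and the W303 haploid A2587 was treated with 500 mM NaCl for 40 min at 30 °C. The labels do not give the karyotypes of the A strains, and they give 1 growth description for both population protocols. The labels name total RNA for exp1 to exp4 and poly(A) RNA for the other sets. The second libraries of A18 in exp4 and of A24 in the chemostat have a strain field that does not match their titles, and they were kept under their titles.

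Superoxide arises mainly where respiration leaks electrons, and dismutases turn it into hydrogen peroxide. Sod1, a copper and zinc enzyme, works mostly in the cytosol and Sod2, a manganese enzyme, in the mitochondrial matrix. Catalases split hydrogen peroxide directly: Ctt1 is the cytosolic catalase T, and Cta1 is the catalase A of peroxisomes, where fatty acid oxidation releases peroxide. Peroxiredoxins and glutathione peroxidase-like enzymes reduce peroxides with electrons from thioredoxin or glutathione, and Ccp1 does so between the mitochondrial membranes with electrons from cytochrome c. In yeast, the general stress factors Msn2 and Msn4 bind the letters AGGGG, and the oxidative stress factor Yap1 binds TTACTAA.

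The letters AGGGG, sought on both strands in the 500 bases before each start codon, stood in the windows of 9 of the 10 genes and in 33.7% of 6659 such windows of all genes. TTACTAA stood in 6 of the 10 windows and in 11.3% of all. The Hap1 element, of 2 CGG triplets, stood in 0 of the 10 windows and in 0.315% of all. CTT1 held 3 AGGGG, at 378, 363 and 133 bases before its start codon, while CTA1 held no AGGGG and 1 TTACTAA at 277. TRX2 held 2 TTACTAA, at 217 and 181 bases, and 1 AGGGG at 430. TSA2 held 2 AGGGG, at 317 and 268, and 1 TTACTAA at 473. Of the genes whose windows are not shown, GPX2 held 2 TTACTAA and 1 AGGGG, the same numbers as TRX2, and TSA1 and GPX1 held 2 AGGGG each. These matches are a description and show no binding, and their link to the time course or the strains was not tested. The 4 windows are shown because their genes take different courses in the time course and in the strains: CTT1 and TSA2 with large increases at 16 h, CTA1 with a late increase, and TRX2 with a difference between aneuploid strains and 2N. They are from the RefSeq genome R64 (sacCer3), 5′ to 3′ on the strand of the gene, with matches to both motifs, read on this strand or as reverse complements, in capitals. They lie at chrVII:654234-654533 (CTT1, plus strand), chrIV:1365863-1366162 (TSA2, minus strand), chrIV:969781-970080 (CTA1, minus strand) and chrVII:913378-913677 (TRX2, minus strand).
CTT1: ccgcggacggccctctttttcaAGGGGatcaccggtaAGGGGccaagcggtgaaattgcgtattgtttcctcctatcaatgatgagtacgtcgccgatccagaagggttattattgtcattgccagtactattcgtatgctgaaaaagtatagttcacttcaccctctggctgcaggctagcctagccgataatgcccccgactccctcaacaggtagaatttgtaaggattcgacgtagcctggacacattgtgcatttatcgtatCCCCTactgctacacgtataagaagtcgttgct
TSA2: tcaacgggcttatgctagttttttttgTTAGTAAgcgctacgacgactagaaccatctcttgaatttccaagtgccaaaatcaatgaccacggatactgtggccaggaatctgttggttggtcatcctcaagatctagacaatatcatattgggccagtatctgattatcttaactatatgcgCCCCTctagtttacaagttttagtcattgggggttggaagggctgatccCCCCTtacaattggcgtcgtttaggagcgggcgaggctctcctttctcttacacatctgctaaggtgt
CTA1: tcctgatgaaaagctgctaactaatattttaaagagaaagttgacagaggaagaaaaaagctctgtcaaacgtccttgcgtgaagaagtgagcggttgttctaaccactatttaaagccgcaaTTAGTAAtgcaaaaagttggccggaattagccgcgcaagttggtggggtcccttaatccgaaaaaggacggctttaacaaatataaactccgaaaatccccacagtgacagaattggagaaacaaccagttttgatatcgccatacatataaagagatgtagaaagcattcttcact
TRX2: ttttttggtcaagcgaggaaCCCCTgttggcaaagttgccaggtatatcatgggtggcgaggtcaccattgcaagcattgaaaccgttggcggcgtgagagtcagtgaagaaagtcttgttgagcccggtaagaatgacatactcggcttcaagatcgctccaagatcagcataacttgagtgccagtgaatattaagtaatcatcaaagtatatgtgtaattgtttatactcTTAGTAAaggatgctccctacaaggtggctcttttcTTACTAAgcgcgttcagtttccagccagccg

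The coding regions of all 10 genes are single exons, and no other gene model overlaps any of them. TSA1, at chrXIII:220138-220728, and TSA2, at chrIV:1365072-1365662, are near copies: 78.5% of their 591 bases are identical, with a longest shared run of 14 bases. How reads that could come from either were divided is not stated in the labels. The longest run shared by GPX1 and GPX2 was 20 bases, and by GPX2 and HYR1, another glutathione peroxidase-like gene, 23 bases. For TRX2 and TRX1, the other cytosolic thioredoxin gene, it was 17 bases.

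Levels are TPM, the share of a transcript in a library per transcript length, rescaled here so that the genes of the table sum to the full TPM total in each library. Before that they summed to between 5.03% and 99.6% of that total, lowest in exp1 to exp4, and in the time course they ranged from 15.4% to 97.2%. Differences are of log2(rescaled TPM + 1), from limma fits across all genes, given ± SE, and a gene is called where its Benjamini-Hochberg adjusted p is under 0.05. All adjusted p-values below come from these fits and measure only the spread between libraries, which may be technical. Between 243 and 1535 genes were at exactly 0 in a library, so a gene at 0 is described only as listed at 0. In bulk RNA, fewer cells with a transcript and less of it per cell cannot be told apart.

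In the WT time course, on rescaled values, 8 of the 10 genes were higher at 22 to 26 h than at 0 to 4 h. Of the 5560 genes tested 42.3% were higher. The other 2, TSA1 and GPX2, were lower, against 40.7%. Without rescaling SOD1 and TRX2 changed sign, as given below. Isoenzymes took different courses: the catalase CTT1 peaked at 16 h while CTA1 was highest at the end, and at 22 to 26 h GPX1 was higher and GPX2 lower than at 0 to 4 h. The median change of the 10 genes was 2.25 and that of all genes 0.013.

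SOD1 had 1951 and 2115 rescaled TPM at 0 h, 2798 and 2738 at 14 h, 6048.9 and 6629 at 16 h and 2833 and 3032 at 26 h. SOD2 had 179.8 and 202 at 0 h, 449 and 454 at 14 h, 1686 and 1913 at 16 h and 1255 and 1372 at 26 h. Both dismutases were highest at 16 h, with no overlap between the 14 h and the 16 h libraries. Between those times SOD2 rose by 1.99 ± 0.12 (adjusted p = 4.54e-11) and SOD1 by 1.19 ± 0.079 (adjusted p = 2.53e-10), against a median of 0.26 for all genes. From 18 to 20 h to 22 to 26 h SOD1 fell by 0.54 ± 0.051 (adjusted p = 5.16e-07), whereas SOD2 was at -0.014 ± 0.075 (adjusted p = 0.902). The ratio of the mean levels of SOD2 and SOD1 was 0.0939 at 0 h, 0.284 at 16 h and 0.448 at 26 h.

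CTT1 had 5.14 and 3.48 rescaled TPM at 0 h, 17.2 and 17.0 at 14 h, 357 and 338 at 16 h, 73.5 and 104.8 at 18 h and 68.5 and 55.0 at 26 h. Its 16 h libraries stood above those of every other time. CTA1 had 3.66 and 4.08 at 0 h, 2.40 and 1.33 at 14 h, 11.5 and 10.1 at 16 h, 18.96 and 21.5 at 22 h and 39.4 and 42.4 at 26 h. Its libraries of 24 h and 26 h stood above all earlier ones. CTT1 rose by 4.27 ± 0.33 from 14 h to 16 h (adjusted p = 2.19e-09) and was at -0.43 ± 0.21 from 18 to 20 h to 22 to 26 h (adjusted p = 0.129). CTA1 rose by 2.06 ± 0.24 (adjusted p = 7.37e-07) and then by 1.10 ± 0.16 (adjusted p = 4.52e-05). The ratio of the mean levels of CTT1 and CTA1 was 1.11 at 0 h, 32.2 at 16 h and 1.51 at 26 h.

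TSA1, the main cytosolic peroxiredoxin, had 1703 and 1879.7 rescaled TPM at 0 h, 2377 and 2378 at 14 h, 3090.0 and 3256 at 16 h and 1165 and 1137 at 26 h. TSA2 had 18.5 and 20.2 at 0 h, 51.0 and 26.5 at 14 h, 668 and 578 at 16 h and 283 and 259.5 at 26 h. TSA1 was the more abundant at every time, but all its libraries of 22 to 26 h lay below those of 0 to 4 h, and those of TSA2 above. Between these spans TSA1 was at -0.75 ± 0.055 (adjusted p = 3.16e-10) and TSA2 at 3.79 ± 0.13 (adjusted p = 1.75e-15). TRX2 had 744 and 761 at 0 h, 1463 and 1416 at 14 h, 2879 and 2786 at 16 h, 2705 and 2856 at 20 h and 1694 and 1713 at 26 h, so that its 16 h and 20 h libraries overlapped where those of CTT1, SOD1 and TSA1 did not. TRX2 rose by 0.71 ± 0.078 from 10 to 12 h to 14 h (adjusted p = 2.98e-06) and by 0.98 ± 0.090 from 14 h to 16 h (adjusted p = 2.9e-08).

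GPX1 had 16.4 and 13.1 rescaled TPM at 0 h, 34.3 and 37.9 at 14 h, 599 and 577 at 16 h and 688 and 653 at 26 h. GPX2 had 282 and 179 at 0 h, 167 and 196 at 14 h, 54.6 and 43.9 at 16 h and 36.3 and 47.9 at 26 h. From 16 h on, every library lay above all earlier ones for GPX1 and below all earlier ones for GPX2. GPX2 was listed at 0 in 1 of the 24 h libraries and had 29.9 in the other. From 14 h to 16 h GPX1 rose by 3.99 ± 0.17 (adjusted p = 8.64e-13). GPX2 was at -1.86 ± 0.86 and was not called (adjusted p = 0.0709), but without the library at 0 it was called at -1.86 (adjusted p = 1.08e-06). Over 22 to 26 h against 0 to 4 h GPX2 was at -3.46 ± 0.50 (adjusted p = 3.48e-06), and at -2.64 without that library. CCP1 had 107 and 101 at 0 h, 171 and 189 at 14 h, 454 and 472 at 16 h and 389.8 and 398 at 26 h, and rose by 1.36 ± 0.10 from 14 h to 16 h (adjusted p = 1.3e-09).

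**Figure D1:**
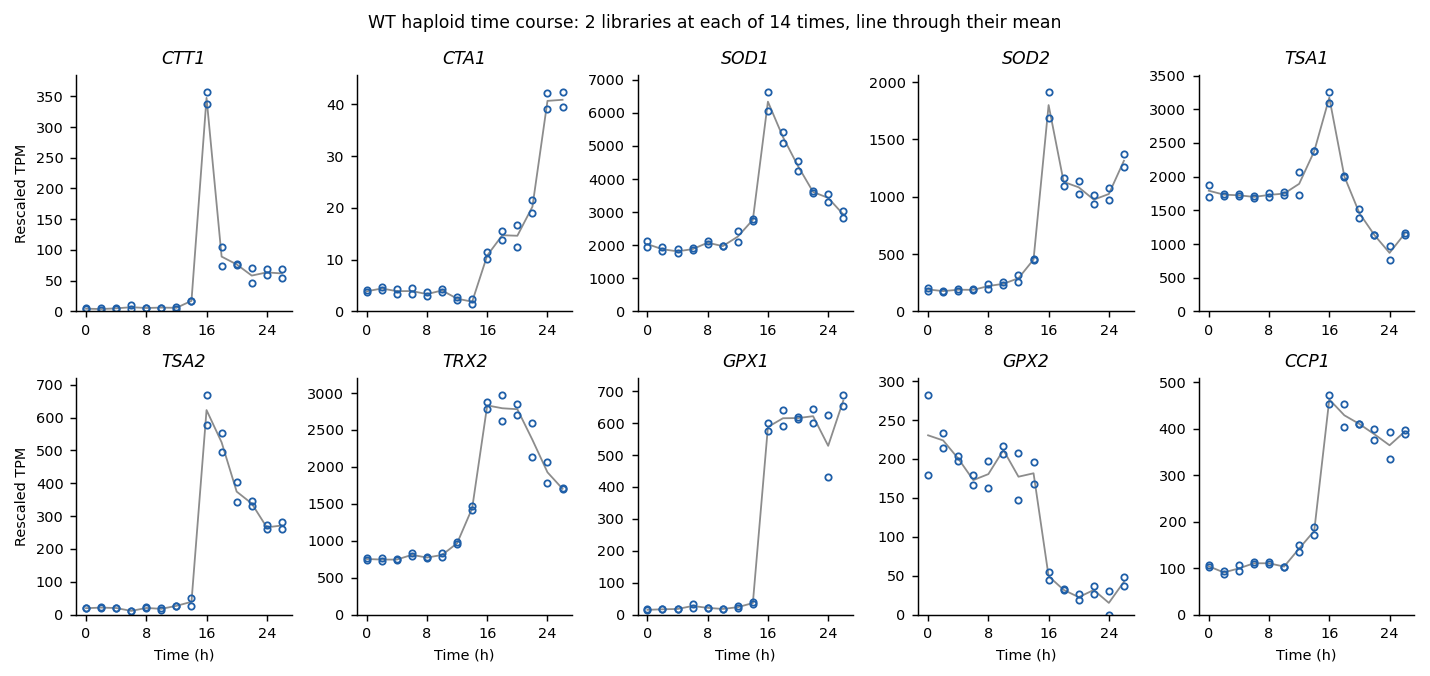
Rescaled TPM (vertical axes, linear, from 0) against time in hours for the 10 genes in the WT haploid, with 2 libraries at each of 14 times as circles and a line through their means. CTT1 stands out at 16 h at 338 and 357, CTA1 is highest at 24 h and 26 h, and GPX2 lies lower from 16 h on than before.

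From 14 h to 16 h, 9 of the 10 genes were called higher, against 37.1% of all genes. Without rescaling, 4 of these were not called: SOD1 (1.17, adjusted p = 0.0985), TRX2 (0.95, adjusted p = 0.195), TSA1 (0.39, adjusted p = 0.627) and CCP1 (1.33, adjusted p = 0.0621). With libraries centred on their medians TSA1 was not called either (0.15, adjusted p = 0.383). From 10 to 12 h to 14 h, 8 genes were called, all higher, against 10.8% of all genes, with CTT1 at 1.41 ± 0.28 (adjusted p = 0.00165) and GPX1 at 0.82 ± 0.15 (adjusted p = 0.000752), and without the first 14 h library TSA2 was not called in this step (adjusted p = 0.403). From 0 to 4 h to 10 to 12 h, 3 genes were called higher, against 9.37% of all genes: SOD2 at 0.50 ± 0.075, CCP1 at 0.31 ± 0.065 and TRX2 at 0.24 ± 0.058, which was not called with that centring (adjusted p = 0.0728) or without the first 10 h library (adjusted p = 0.0523). From 18 to 20 h to 22 to 26 h, 5 genes were called, against 32.8% of all genes. CTA1 rose, though not without rescaling (0.21, adjusted p = 0.584), and SOD1, TRX2, TSA1 and TSA2 fell. On the values as deposited, without rescaling, 0 of the 10 genes were called from 0 to 4 h to 10 to 12 h or from there to 14 h. Over 22 to 26 h against 0 to 4 h, SOD1 was then at -0.69 (adjusted p = 0.0378) and TRX2 at -0.083 (adjusted p = 0.814), against 0.80 and 1.40 with rescaling, and CCP1 was not called (0.48, adjusted p = 0.162).

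Other genes of these pathways were taken from lists, and their counts stand beside 42.3% of all genes higher and 40.7% lower. Over 22 to 26 h against 0 to 4 h, all 12 of 12 general stress genes rose, led by HSP12 at 11.14 ± 0.17, with a list median of 5.17. All 4 genes of the cytochrome list rose, with CYB2, a lactate dehydrogenase that passes electrons to cytochrome c, at 7.45 ± 0.14. Of 4 other peroxidase genes 2 rose and 1 fell: PRX1, the mitochondrial peroxiredoxin, was at 3.92 ± 0.061, HYR1, another glutathione peroxidase-like gene, at 1.85 ± 0.050 and AHP1, a peroxiredoxin gene, at -2.55 ± 0.054. Of 15 genes of the thioredoxin and glutathione systems 8 rose and 5 fell, with a median of 0.70. Of 5 genes that supply the dismutases with metal 2 rose and 3 fell, with CTR1, the copper transporter, at 1.45 ± 0.061 and CCS1, the copper chaperone of Sod1, at -1.13 ± 0.093. Of 8 regulator genes 5 rose and 3 fell, among them ADR1, an activator of peroxisomal genes, at 4.39 ± 0.13 and MSN4 at 2.55 ± 0.15. Of 3 tested genes of fatty acid oxidation 2 rose, with the thiolase gene POT1 at 6.09 ± 0.20.

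Over the 14 time means, the 2 genes most like each member by Pearson r were sought among 5017 candidates. For CTT1 the closest was RTN2 (r = 0.994), for CTA1 YIG1 (0.995), for SOD2 UIP4 and MCR1 (both 0.998), for GPX1 PEP12 (0.998) and for GPX2 PAN5 (0.989). For TSA1 it was MRP4 at a lower r of 0.939. Among the members, SOD2 and CCP1 had r = 0.990 and GPX1 and GPX2 had r = -0.891. These values describe 14 means whose genes share the same libraries.

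In the pooled populations, the called difference between aneuploid and euploid cells had opposite signs under the 2 protocols for CTT1, SOD2, TRX2, GPX1, TSA2 and CCP1. After centring on library medians, TRX2 turned negative in the dilution comparison, and neither TRX2 nor TSA2 was called there. Under the dilution protocol 8 of the 10 genes were called higher in the aneuploid population, against 61.8% of 5726 genes, and 0 lower, against 15.4%. Under the Tsai protocol 3 were called higher, against 37.5%, and 7 lower, against 38.9%. GPX2 and TSA1 were higher in the aneuploid population under both. The difference between the protocols was called for 9 of the 10 genes, against 78.3% of all genes, and was widest for CTT1. With libraries centred on their medians TSA1 was not among them (-0.013, adjusted p = 0.844).

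Under the dilution protocol CTT1 had 95.0, 95.3 and 97.2 rescaled TPM in the aneuploid libraries, against 24.5, 27.4 and 23.7 in the euploid libraries. Under the Tsai protocol it had 113, 113 and 116 in the aneuploid libraries, against 147, 135 and 144 in the euploid libraries, and the exponential WT had 8.87, 10.9 and 11.8. The aneuploid libraries stood above the euploid ones under one protocol and below them under the other, with no overlap. CTT1 was 1.89 ± 0.077 higher under the dilution protocol (adjusted p = 7.21e-12) and fell by 0.31 ± 0.077 under the Tsai protocol (adjusted p = 0.0015), a difference between protocols of -2.20 ± 0.11 (adjusted p = 1.98e-11). CTA1 had 5.34, 5.52 and 5.28 in aneuploid and 4.18, 3.11 and 4.04 in euploid Tsai libraries, and was at 0.42 ± 0.14 (adjusted p = 0.0138). Without the second Tsai euploid library this call was lost (0.32, adjusted p = 0.0686). In the dilution populations CTA1 was at 0.29 ± 0.14 (adjusted p = 0.0789), and its difference between protocols was not called (0.14 ± 0.20, adjusted p = 0.553).

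SOD1 under the Tsai protocol had 1220.0, 1291 and 1264 rescaled TPM in aneuploid against 1762, 1913 and 1716 in euploid libraries (-0.51 ± 0.038, adjusted p = 3.06e-09). Under the dilution protocol its 1719.9, 1638 and 1759 in aneuploid libraries overlapped the 1729, 1728 and 1675 of euploid libraries (-0.0048 ± 0.038, adjusted p = 0.913). SOD2 was at -0.38 ± 0.037 under the Tsai protocol (adjusted p = 1.07e-07) and at 0.40 ± 0.037 under the dilution protocol (adjusted p = 9.7e-08). SOD2 was thus called under both protocols and SOD1 under the Tsai protocol only. All genes had a median of 0.27 in the dilution comparison, so SOD1 lay below that median and SOD2 above it.

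TSA2 under the Tsai protocol had 67.9, 64.02 and 68.1 rescaled TPM in aneuploid against 163, 165 and 174 in euploid libraries (-1.32 ± 0.088, adjusted p = 8.48e-10). Under the dilution protocol it had 40.0, 37.7 and 37.9 in aneuploid against 31.96, 32.6 and 24.0 in euploid libraries (0.39 ± 0.088, adjusted p = 0.000884). The groups did not overlap under either. TSA1 was higher in the aneuploid population by 0.10 ± 0.029 under the Tsai protocol (adjusted p = 0.00464) and by 0.36 ± 0.029 under the dilution protocol (adjusted p = 1.89e-08). TRX2 was at -0.48 ± 0.044 (adjusted p = 4.61e-08) and 0.15 ± 0.044 (adjusted p = 0.00499) under the same protocols. All genes had a median of -0.0087 in the Tsai and 0.27 in the dilution comparison, and TRX2 in the dilution comparison lay below that median. With each library centred on its median, TRX2 there was at -0.094 (adjusted p = 0.121) and TSA2 at 0.14 (adjusted p = 0.183).

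GPX1 under the Tsai protocol had 81.6, 88.4 and 83.8 rescaled TPM in aneuploid against 169.8, 167 and 156 in euploid libraries (-0.95 ± 0.084, adjusted p = 2.98e-08). GPX2 had 119, 105.4 and 112 in aneuploid against 31.3, 34.3 and 36.9 in euploid libraries (1.69 ± 0.062, adjusted p = 4.09e-13). The ratio of GPX1 to GPX2 was therefore 0.755 in the aneuploid and 4.82 in the euploid Tsai population. In the dilution populations GPX2 had 196, 199.6 and 220.5 in aneuploid against 101, 99.4 and 101 in euploid libraries (1.02 ± 0.062, adjusted p = 7.84e-10). CCP1 had 231, 234 and 264 in aneuploid against 118, 121 and 121 in euploid dilution libraries (1.01 ± 0.047, adjusted p = 4.09e-11). Under the Tsai protocol CCP1 was at -0.30 ± 0.047 (adjusted p = 2.46e-05).

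**Figure D2:**
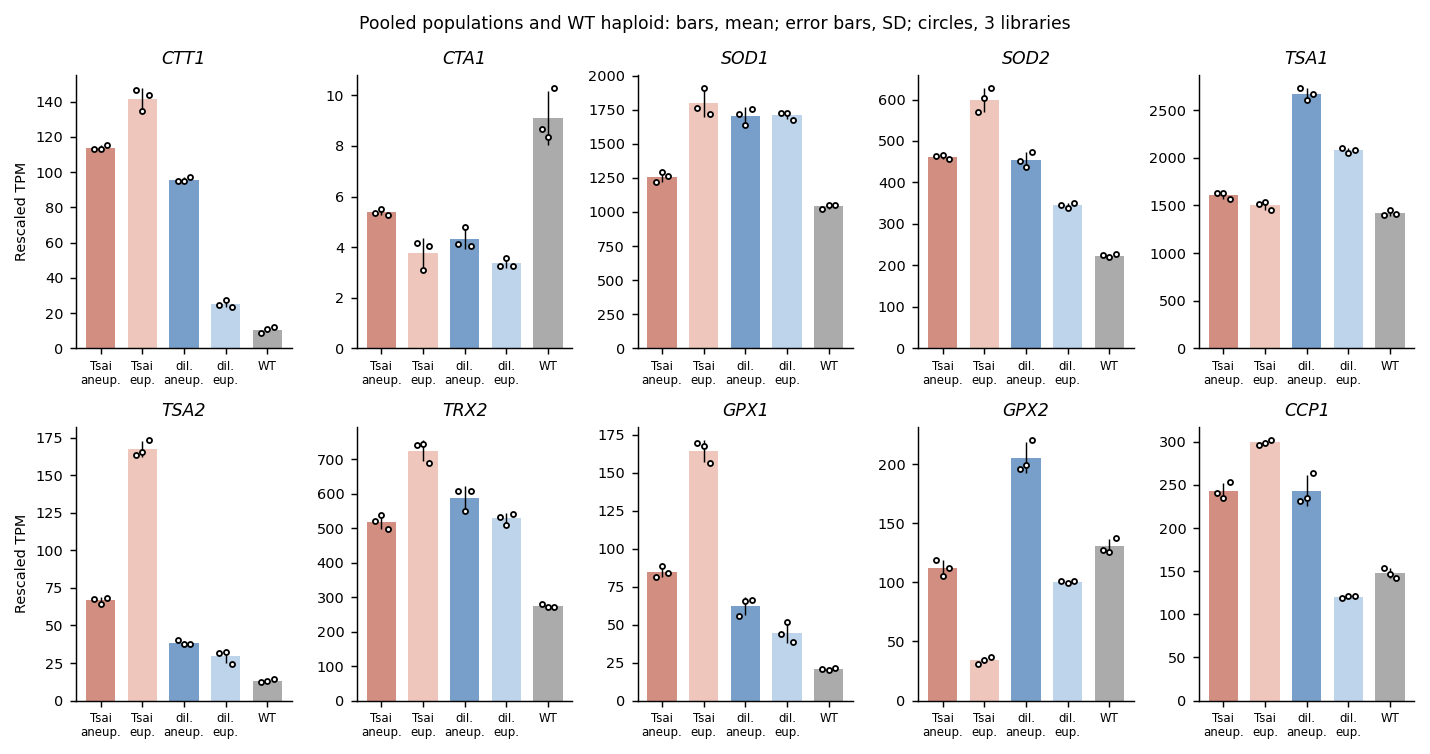
Rescaled TPM (linear, from 0) of the 10 genes in the Tsai aneuploid and euploid, the dilution ("dil.") aneuploid and euploid populations ("aneup.", "eup.") and the exponential WT, with bars for means, error bars for SD and circles for 3 libraries each. CTT1, TSA2 and GPX1 are highest in the Tsai euploid libraries, and GPX2 is lowest there.

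Of 12 general stress genes, 9 were lower and 2 higher in the aneuploid population under the Tsai protocol, and 11 were higher under the dilution protocol, with HSP12 at -2.24 ± 0.074 and 2.84 ± 0.074. The 4 cytochrome genes were all lower under the Tsai and all higher under the dilution protocol. Of all genes 38.9% were lower and 37.5% higher under the Tsai protocol, and 61.8% higher and 15.4% lower under the dilution protocol. Of 15 genes of the thioredoxin and glutathione systems 7 were lower and 2 higher under the Tsai protocol. Under the dilution protocol 8 were higher and 1 lower, led by SRX1, the sulfiredoxin that repairs over-oxidised peroxiredoxins, at 1.45 ± 0.17. Haploid-specific and α-specific mating genes moved the same way under both protocols: 5 of 5 and 4 of 4 were lower in the aneuploid population. The 6 a-specific genes, over both protocols, summed to between 4845 and 7159 rescaled TPM in aneuploid and between 6149 and 8678 in euploid libraries. The part of these mating genes in the values above was not tested.

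The 2 euploid populations themselves differed from the exponential WT in all 10 genes, against 85.1% of all genes for the Tsai and 73.3% for the dilution protocol. In the Tsai euploid population CTT1 was at 3.64 ± 0.077 (adjusted p = 9.52e-17), TSA2 at 3.59 ± 0.088, GPX1 at 2.93 ± 0.084, SOD2 at 1.42 ± 0.037 and TRX2 at 1.40 ± 0.044, while GPX2 was at -1.90 ± 0.062 and CTA1 at -1.08 ± 0.14. In the dilution euploid population CTT1 was at 1.19 ± 0.077, TSA2 at 1.12 ± 0.088 and GPX1 at 1.06 ± 0.084, with GPX2 at -0.37 ± 0.062 and CTA1 at -1.21 ± 0.14. CCP1 was 1.02 ± 0.047 higher in the Tsai euploid population and fell by 0.29 ± 0.047 in the dilution euploid population. The sign for CTA1 was opposite to its late change in the WT time course. TSA1 was 0.077 ± 0.029 higher in the Tsai euploid population (adjusted p = 0.0213), and at -0.027 with libraries centred on their medians. That call was also lost without the variance trend (adjusted p = 0.0583) and without either of 2 Tsai euploid or 2 WT libraries, with adjusted p up to 0.0935. The 4 α-specific genes summed to between 3727 and 9130 rescaled TPM in the populations and between 26.0 and 28.8 in the WT. The 6 a-specific genes summed to between 4845 and 8678 in the populations and between 3323 and 3443 in the WT. The part of these differences in mating genes in the values above was not tested.

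In the phosphate-limited chemostat, CTT1 and TSA2 were higher and CCP1 was lower in the mean of 9 aneuploid strains than in 2N. These were 3 of the 10 genes, against 12.0% of 5692 genes. The other 7 were not called, among them CTA1 at 0.63 ± 0.48 (adjusted p = 0.442), SOD2 at 0.28 ± 0.17 (adjusted p = 0.305) and TRX2 at -0.46 ± 0.23 (adjusted p = 0.222). The median over the 10 genes was 0.16 and over all genes -0.078.

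CTT1 in 18 aneuploid libraries had a lowest value of 50.2, a median of 318 and a highest of 944 rescaled TPM, against 110.2 and 84.7 in the 2N libraries. Of the 18, 14 lay above both 2N libraries and 2, those of A34, below. The change was 1.55 ± 0.39 (adjusted p = 0.0213), and single strains reached from -0.82 in A34 to 2.97 in A23. Replicates of some strains were far apart, as in A18 with 209 and 680.2 and A38 with 378 and 944, whereas A23 had 784 and 748. TSA2 in the aneuploid libraries had a lowest value of 27.1, a median of 133 and a highest of 479, against 50.2 and 29.7 in 2N, and was at 1.59 ± 0.44 (adjusted p = 0.0328). Its highest strain was A21, with 428 and 479. CCP1 in the aneuploid libraries had a lowest value of 282, a median of 402 and a highest of 581, all 18 below the 636 and 632 of 2N, and was at -0.66 ± 0.16 (adjusted p = 0.0184).

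Strain by strain, 18 of 90 comparisons of a member with 2N were called, 12 higher and 6 lower, against 13.9% of all gene by strain tests. CTT1 was called higher in 6 strains (A18, A20, A21, A23, A37 and A38) and TSA2 in 4 (A21, A23, A37 and A38). CCP1 was called lower in 4 (A20, A21, A22 and A38) and TRX2 in 2 (A22 at -1.10 and A34 at -1.36). SOD2 in A38 (0.83) and GPX2 in A22 (1.06) were higher. These calls depended on both 2N libraries: without the first, 0 of the 10 genes were called in the mean and 6 of the 90 comparisons, and without the second, 0 and 2. Chemostat libraries carry 1 of 2 library codes, and 2N shares its code with A20, A21 and A23 only. In those strains CTT1 was at 2.60 (adjusted p = 0.00668), TSA2 at 2.58 (adjusted p = 0.0241) and CCP1 at -0.84 (adjusted p = 0.0426), while TRX2 was at 0.11 (adjusted p = 0.78). Both strains called for TRX2, A22 and A34, carry the other code. TRX2 had a median of 1173 in aneuploid libraries of the 2N code, 616 in those of the other and 1056 in 2N. For strains of the other code, strain and library code cannot be told apart in the difference from 2N. All 5 haploid-specific and 4 α-specific genes were higher in the aneuploid mean, against 3.99% of 5692 genes. The 4 α-specific genes summed to between 26.8 and 12523 rescaled TPM in aneuploid libraries, with a median of 51.0. In 2N they summed to between 45.1 and 68.2. The 6 a-specific genes summed to between 29.8 and 5591 in aneuploid libraries, with a median of 87.9. In 2N they summed to between 177 and 262. The 5 haploid-specific genes summed to between 38.4 and 937 rescaled TPM in aneuploid libraries and between 45.9 and 52.1 in 2N, and their part in the values above was not tested.

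In exponential batch culture, TRX2 and TSA1, a thioredoxin and the peroxiredoxin it reduces, were higher in the mean of 10 aneuploid strains than in 2N. These were 2 of the 10 genes, against 5.90% of 5877 genes, or 3.62% higher. TRX2 in exp1 had a lowest value of 315, a median of 597 and a highest of 776 rescaled TPM in 10 aneuploid libraries, against 265, 371, 152 and 334 in 2N. In exp2 it had a lowest value of 147, a median of 426 and a highest of 735 in 12 aneuploid libraries, against 168 and 370.1 in 2N. In exp3 it had a lowest value of 202, a median of 343 and a highest of 643 in 14 aneuploid libraries, against 291 and 235.7 in 2N. Above all 2N libraries of their own experiment lay 9, 9 and 8 of these libraries, so the groups overlapped in each. TRX2 was at 0.73 ± 0.18 over the 3 experiments (adjusted p = 0.0105), and at 1.03, 0.72 and 0.43 within exp1, exp2 and exp3 (adjusted p = 0.0173, 0.577 and 0.585).

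TSA1 in exp1 had a lowest value of 1874, a median of 2930.3 and a highest of 3416 rescaled TPM in aneuploid libraries, against 1804, 1511, 1973 and 2611 in 2N. It was at 0.31 ± 0.066 over the 3 experiments (adjusted p = 0.002), and at 0.47, 0.31 and 0.27 within them (adjusted p = 0.0562, 0.431 and 0.224). With the strain as a random block neither gene was called (TRX2 0.76, adjusted p = 0.835; TSA1 0.35, adjusted p = 0.996), and that fit called 4 genes in all. With libraries centred on their medians TSA1 was not called (0.36, adjusted p = 0.0684). CTT1 in the mean of all strains was at 0.65 ± 0.43 (adjusted p = 0.453), CTA1 at -0.74 ± 0.44 (adjusted p = 0.383), SOD2 at 0.42 ± 0.18 (adjusted p = 0.181) and SOD1 at 0.18 ± 0.096 (adjusted p = 0.328). GPX1, GPX2 and TSA2 were listed at 0 in some of these libraries, and their differences had SEs of 0.86, 0.51 and 0.82.

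By strain, 16 of 100 comparisons with 2N were called, all higher, against 3.37% of all gene by strain tests. TRX2 was called in A19 (1.28), A20 (0.84), A21 (1.01) and A25 (1.505), and its difference was above 0 in all 10 strains. TSA1 was called in A19 (0.82), A20 (0.53), A21 (0.54) and A27 (0.74), SOD1 in A19, A20, A22 and A27, and SOD2 in A20, A21 and A22. Centring on library medians ended the calls of TSA1 in A27 (adjusted p = 0.295), SOD1 in A27 (0.299) and A22 (0.098) and SOD2 in A22 (0.0735). TRX2 in A25 was not called without the variance trend (adjusted p = 0.0658) or in 7 of 44 fits without 1 library, with adjusted p up to 0.299. Leaving out 1 library ended the call in 4 fits for SOD2 in A22, in 2 for SOD1 in A27 and in 1 each for SOD1 and TRX2 in A20 and TSA1 in A27. CTT1 was called in A20 only, at 2.41, and A20 was also called for CTT1 in the chemostat, at 2.15. The strains share their 2N libraries, so these differences are not independent.

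No difference between the chemostat and the batch culture change of the shared strains was called for the 10 genes in limma, against 1.11% of 5869 genes. In that fit 2 of the 10 had an unadjusted p under 0.05, CCP1 at -0.89 ± 0.29 and TRX2 at -0.87 ± 0.38. Of the 12 general stress genes 7 were called higher in the batch mean, against 3.62% of all genes, led by YGP1 at 1.36 ± 0.28, and 1 in the chemostat mean, YGP1 at 2.64 ± 0.42. With the strain as a random block 0 of the 12 were called in the batch mean, with a smallest adjusted p of 0.671. Of the 15 genes of the thioredoxin and glutathione systems 1 was called in batch culture, TRR1, the reductase of cytosolic thioredoxin, at -0.31 ± 0.095, and 0 in the chemostat. In batch culture 3 of 5 haploid-specific and 2 of 4 α-specific genes were also called higher, and 0 of 6 a-specific genes were called. Neither TRR1 nor any of these mating genes was called with the random block. The haploid-specific genes summed to between 34.7 and 1111 rescaled TPM in aneuploid libraries and between 28.2 and 221 in 2N, and their part in the values above was not tested.

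**Figure D3:**
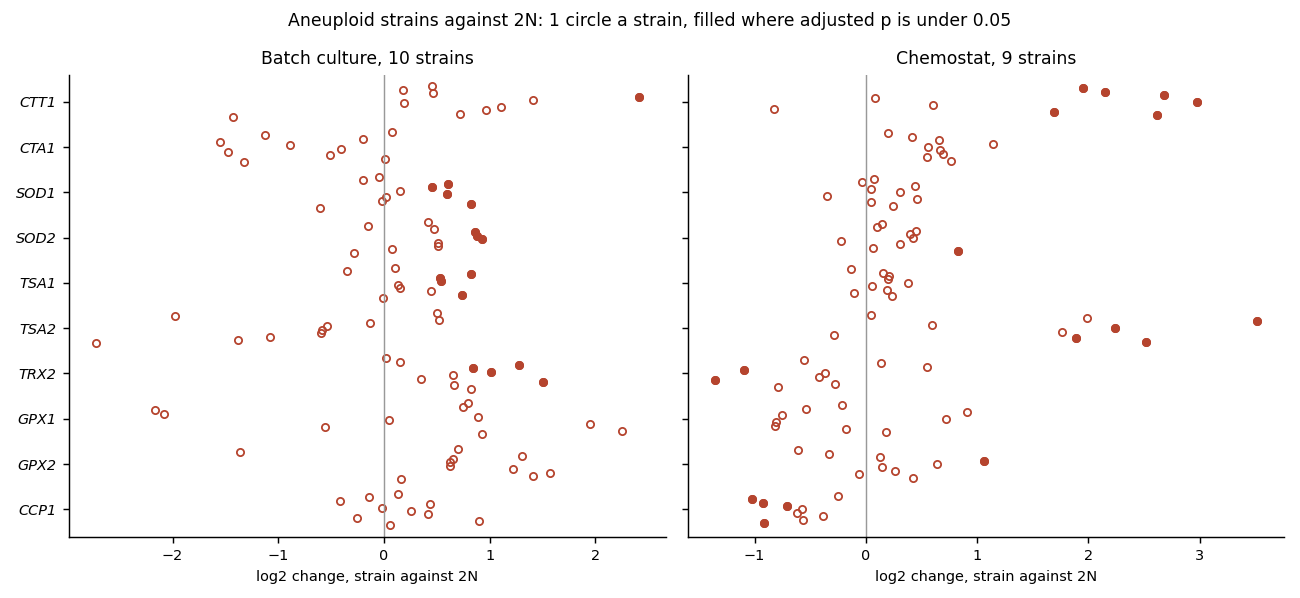
log2 change of each aneuploid strain against 2N (horizontal axes) for the 10 genes in batch culture (10 strains, exp1 to exp3) and in the chemostat (9 strains), 1 circle a strain, filled where the adjusted p is under 0.05. TRX2 lies to the right of 0 in all 10 batch strains, and CCP1 lies to the left of 0 in all 9 chemostat strains.

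The aneuploid strains also differed from each other. Over the 12 strains of exp5 and exp6 all 10 genes differed among strains (moderated F-test in limma), as did 98.3% of 5420 genes. TSA2, CTT1 and GPX1 in A38 lay farthest from the level of their own chromosome. Of 120 pairs of a member and a strain, each strain set against the mean of the other strains, 65 were called, against 49.9% of all gene by strain tests. For each pair the member's difference and the median difference of the other genes of its chromosome were taken relative to the median of all genes. In 30 pairs the chromosome was at least 0.25 above that median, and the member was above it in 21, of which 14 were called. Of all gene by strain pairs on such chromosomes, 91.0% were above, and 61.5% above and called. In 30 pairs the chromosome was at least 0.25 below, and the member was below in 25, of which 20 were called, while of all such pairs 88.9% were below and 63.3% below and called. A chromosome's median sets the side of most of its genes, so these counts are a description. The median distance of a member from the median of all genes was 0.27, and 0.23 after its chromosome's level was taken off, against 0.25 and 0.14 over all genes.

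CTA1, on chromosome IV, was at 0.70 in A32 and 0.50 in A34 relative to all genes, where chromosome IV was at 0.51 and 0.50. TRX2, on chromosome VII, was at 0.75 in A24 and -0.39 in A38, where chromosome VII was at 0.38 and -0.36. CTT1, on the same chromosome, was at 0.92 in A38, against the direction of chromosome VII there. In A30 CTT1 was at -1.02 with chromosome VII at 0.12. TSA2, on chromosome IV, was at 1.65 in A38 with its chromosome at 0.35, where it had 87.8, 106 and 86.9 rescaled TPM in exp6 and 39.5 and 35.6 in exp5. GPX1, on chromosome XI, was at 1.44 in A38 with its chromosome at 0.16, and GPX2, on chromosome II, was at 1.19 in A26 with its chromosome at 0.31. SOD1, on chromosome X, spanned -0.79 in A35 to 0.88 in A36, with the chromosome at -0.21 and 0.21.

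Over the 12 strain effects, the 2 genes most like each member by Pearson r, among 4934 candidates, lay on the member's own chromosome for SOD1 (COA3 0.927 and ARP3 0.917), SOD2 (COX6 0.950 and QCR10 0.943), TRX2 (ANK1 0.915 and CUP2 0.885) and TSA1 (YTA12 0.922 and ERG13 0.898). In all, 9 of the 20 genes so named shared the member's chromosome, and over the 14 time means 1 of 20. For CTT1 the most alike were MSN4 on chromosome XI (r = 0.843) and VID24 on chromosome II (0.835). For GPX1 they were the glutaredoxin gene GRX1 on chromosome III (r = 0.949) and STF1 on chromosome IV (0.912). These are the highest of 4934 candidates over 12 strain effects, and regulation of a member by any of them was not tested.

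**Figure D4:**
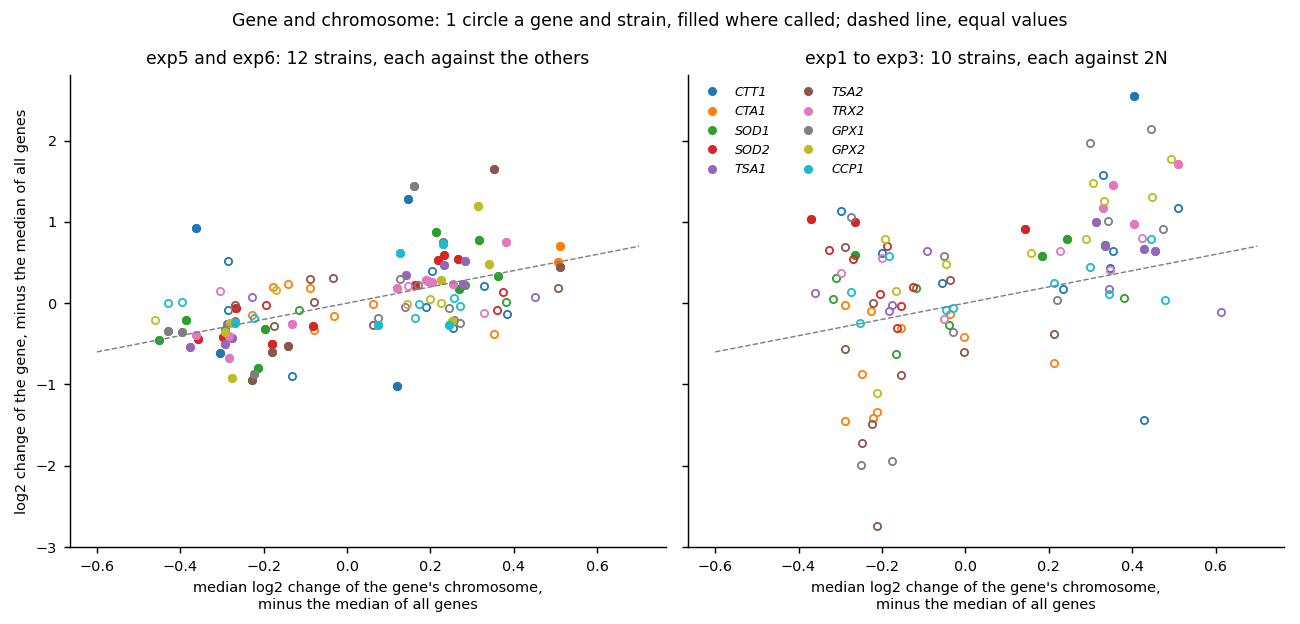
log2 change of a member in a strain (vertical axis) against the median log2 change of the other genes of its chromosome (horizontal axis), both minus the median of all genes, in exp5 and exp6 (12 strains against each other) and in exp1 to exp3 (10 strains against 2N), with filled circles for called pairs and a dashed line of equal values. In exp5 and exp6 the circles farthest from the line are TSA2, CTT1 and GPX1 in A38.

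Against 2N in exp1 to exp3, the member was above the median of all genes in 31 of the 33 pairs whose chromosome was at least 0.25 above it, and below it in 4 of the 17 pairs whose chromosome was at least 0.25 below. Over all genes 75.7% of such pairs were above and 70.5% below. SOD2 was called higher in A20 and A21, at 1.00 and 1.04 relative to all genes, with chromosome VIII at -0.26 and -0.37. The 4 called TRX2 differences lay in strains with chromosome VII at 0.35 (A19), 0.41 (A20), 0.33 (A21) and 0.51 (A25). In exp4, a further total RNA experiment with 10 strains and no 2N, 4 of the 10 genes differed among strains (CTT1, SOD1, TRX2 and TSA1), against 11.7% of 5885 genes, but 2 did with libraries centred on their medians and 0 with a variance prior without a trend.

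The same 8 strains were grown in exp6 and exp5, and 8 of the 10 genes differed between these experiments, against 75.1% of 5427 genes with a median change of 0.17. CTT1, TSA2, GPX1, CCP1 and SOD2 were higher, though with libraries centred on their medians CCP1 (0.067, adjusted p = 0.0519) and SOD2 were not called, and GPX2, TRX2 and SOD1 lower, in exp6. CTT1 in 24 exp6 libraries had a lowest value of 14.8, a median of 51.2 and a highest of 97.0 rescaled TPM, against a lowest of 3.84, a median of 7.24 and a highest of 21.2 in 16 exp5 libraries. In each of the 8 strains all exp6 libraries lay above all exp5 libraries. CTT1 was at 2.24 ± 0.099 over the 8 strains (adjusted p = 2.05e-18). The size was unequal among strains for 6 of the 10 genes, against 38.3% of all genes, with CTT1 first (adjusted p = 1.54e-06): A32 had 94.5, 95.3 and 95.7 in exp6 against 6.17 and 6.06 in exp5, while A26 had 18.2, 16.3 and 27.8 against 14.4 and 4.99. Of the 6, CCP1 (adjusted p = 0.0494) was not called without rescaling (adjusted p = 0.0669), without the variance trend (0.0611) or in 31 of 40 fits without 1 library. TRX2 was not called with centring (adjusted p = 0.0822), nor GPX2 without the second exp5 library of A33 (adjusted p = 0.139).

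TSA2 was at 1.05 ± 0.061 (adjusted p = 1.26e-15), with all exp6 libraries above all exp5 libraries in 7 of 8 strains, and GPX1 at 0.71 ± 0.071 (adjusted p = 3.02e-10), in 6 of 8. TRX2 was at -0.54 ± 0.030 (adjusted p = 3.81e-16) and GPX2 at -0.54 ± 0.049 (adjusted p = 4.23e-11), each with all exp6 libraries below all exp5 libraries in 8 of 8 strains. TSA1 was at 0.053 ± 0.030 and CTA1 at 0.17 ± 0.081, and neither was called (adjusted p = 0.114 and 0.0554). SOD2 was at 0.24 ± 0.046, near the median of all genes, and at -0.00064 after that centring (adjusted p = 0.991). All 12 general stress genes were higher in exp6, against 57.0% of 5427 genes, led by DDR2 at 3.59 ± 0.14. The experiments carry different library codes, so culture and sequencing cannot be told apart in this difference.

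**Figure D5:**
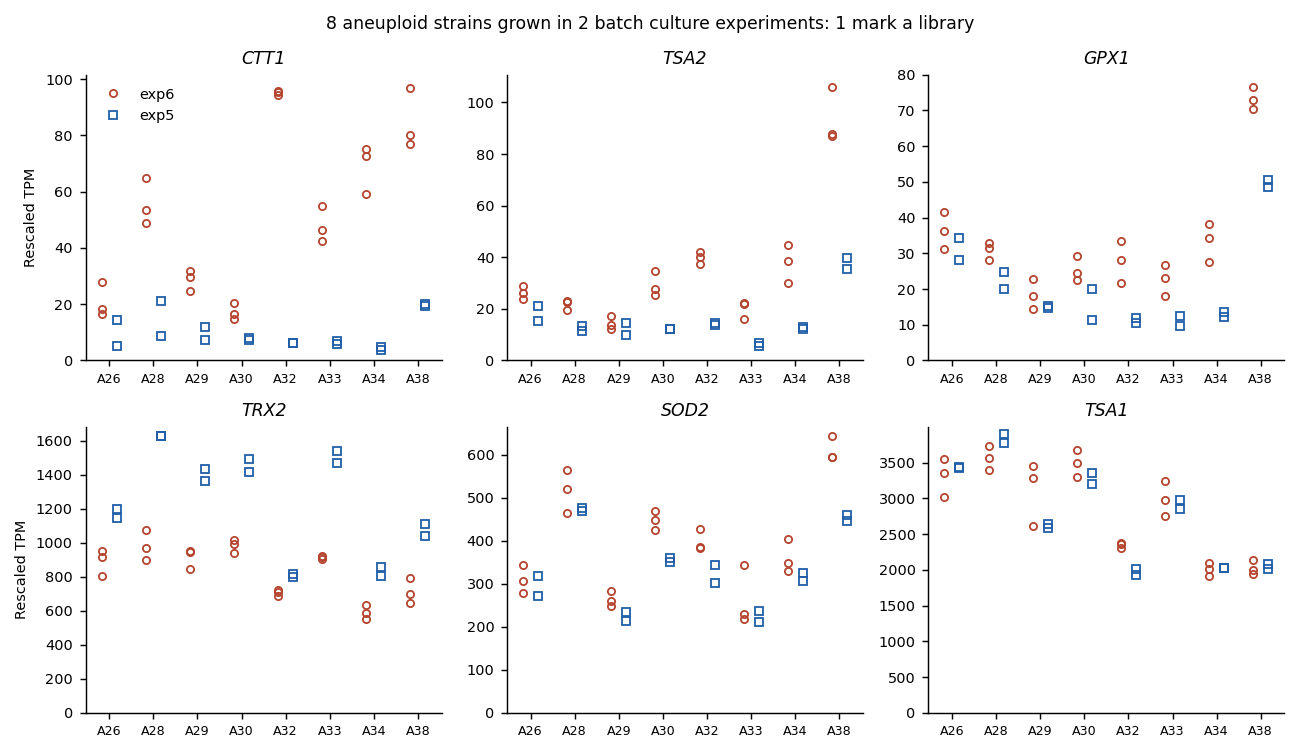
Rescaled TPM (linear, from 0) of 6 of the genes in 8 aneuploid strains, with exp6 libraries (circles, 3 a strain) left of exp5 libraries (squares, 2 a strain). CTT1 is higher in exp6 in all 8 strains and by different amounts, and TRX2 is lower in all 8.

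Across all 81 groups, the highest group means of CTT1 were in the chemostat, in A23 (766 ± 25.0 rescaled TPM, SD, n = 2), A38 (661 ± 400.4) and A21 (624 ± 19.9), where the 2 libraries of A38 spanned both neighbours in this order. Those of CTA1 were at 26 h (40.9 ± 2.11), at 24 h (40.7 ± 2.28) and in 2N of exp1 (39.3 ± 19.6, n = 4), within their spread of each other. SOD1, SOD2, TRX2 and TSA2 were highest at 16 h of the time course and GPX1 at 26 h, with SOD1 at 6339 ± 410.4 at 16 h and 5268 ± 234 at 18 h. TRX2 at 16 h (2833 ± 65.9), 18 h (2794 ± 249) and 20 h (2781 ± 107) stood within their spread. TSA1 was highest in A28, at 3563 ± 167 in exp6 and 3837 ± 88.1 in exp5, and GPX2 in A26, at 288 ± 40.2 in exp6 and 350.02 ± 16.5 in exp5. CCP1 was highest in the chemostat 2N, at 634 ± 3.06, where the lowest group was the NaCl-treated W303 at 32.9 ± 9.42 (n = 3). Total RNA and poly(A) sets differ in library preparation, and that cannot be told apart from the other differences between those sets.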

How the data were processed

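RNA sequencing values of 176 libraries in 81 groups were analysed. The authors' deposited table holds log2(TPM + 1) for 6692 genes, made with STAR 2.5.3a and RSEM 1.3.0 on sacCer3, per the submitters' processing notes. Read totals are not in these values, so depth is unknown and no counting interval is given. Values were returned to TPM, divided by their sum over the table's genes and multiplied by 1e+06, since the sums ranged from 5.03% to 99.6% of that total.

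Groups followed the titles. Fits used limma 3.58.1 in R 4.3.3 (lmFit, eBayes with a variance trend) on log2(rescaled TPM + 1), with a pseudocount of 1, on genes with a mean log2 value of at least 2, and Benjamini-Hochberg adjustment over all genes tested. Each set had its own fit: batch culture with experiment as a term, exp5 with exp6, exp4, chemostat, populations with WT, and time course. Exp6 against exp5 was added after the values were seen. The steps were tested on simulated data. All 10 members were tested and are named, with at most the 3 called genes of largest change from each companion list and the 2 most alike genes by Pearson r. Members and lists were chosen with earlier results of these data known. Upstream windows of 500 bases were read from the R64 genome, in which all 10 genes have the table's coordinates, in place of a promoter table. Alternatives were no rescaling, median centring, other pseudocounts and filters, no variance trend, a replicate block, a strain block, single experiments or library codes, and leaving out each library.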

Additional observations from a re-analysis of the deposited data

Results flagged for a closer look

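The aneuploid minus euploid difference differed between the Tsai and the dilution populations in 9 of the 10 genes, against 78.3% of all genes, by the interaction term of the limma fit. The Tsai minus dilution values were -2.20 for CTT1, -1.70 for TSA2, -1.43 for GPX1, -1.31 for CCP1, -0.77 for SOD2, -0.63 for TRX2, -0.51 for SOD1, -0.26 for TSA1 and 0.66 for GPX2. All genes had a median of -0.32, which TSA1 did not exceed in size, and with libraries centred on their medians TSA1 was not called (-0.013, adjusted p = 0.844).

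The exp6 minus exp5 difference was unequal among the 8 shared strains in 6 of the 10 genes, against 38.3% of all genes, by a moderated F-test in limma. F was 14.5 for CTT1, 8.08 for TSA2, 4.53 for TRX2, 4.34 for GPX1, 3.65 for GPX2 and 2.92 for CCP1. CCP1 was not called without rescaling, without the variance trend, with the replicate block (adjusted p = 0.0681) or in 31 of 40 fits without 1 library, with adjusted p up to 0.218. With centring F was 2.52 for TRX2, which was then not called (adjusted p = 0.0822), and GPX2 was not called without 1 exp5 library of A33.

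In the 4 libraries of 2N in exp1, GPX1 was listed at 0 in 1 library, whose gap to the nearest of the others was 0.841 of the group's range on the log2(rescaled TPM + 1) scale, above Dixon's 95% limit for 4 samples. In rescaled TPM the gap was 0.499 of the range, below that limit. Chance gives such a gap in about 1 in 20 cases, and the 10 genes were examined in this group, the only group with 4 libraries.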

How the results depend on the processing

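Of 1951 recomputed values under the alternative settings, 1867 kept their direction and their side of the threshold, 69 lost the call, 3 gained one and 12 changed sign. With 1 library left out, 7560 of 7769 did, 202 lost the call, 2 gained one and 5 changed sign. These counts cover called results, the mean differences from 2N and GPX2 from 14 h to 16 h. Outside them, GPX2 at 22 to 26 h against 18 to 20 h, not called at -0.48, turned to 0.34 without the 24 h library at 0 (adjusted p = 0.0924). The 2 members called in batch culture became 1 with libraries centred on their medians, 1 with the replicate block, 1 in exp1 alone, 0 in exp2 alone, 0 in exp3 alone and 0 with the strain as a random block. Correlations of the deviations of same-numbered samples lay between -0.582 and 0.474. Those over 0.1 were 9 of 420 in batch culture, 30 of 90 in the chemostat and 51 of 408 in exp5 with exp6. Their medians there were -0.000701, -0.0406 and -0.00535, so the same number did not go with a consistent shared deviation. Whether libraries of different numbers share an effect was not tested. The replicate block took the call from TRX2 in the batch mean (0.62, adjusted p = 0.0555) and in A20 and A25 (adjusted p = 0.0593 and 0.0604), and from CCP1 among the strains of exp6 and exp5 (adjusted p = 0.0681). In batch culture only 2N of exp1 has libraries numbered 3 and 4, so the block fitted each of these exactly. They then no longer entered the comparison with 2N, and for TRX2 blocking cannot be told apart from leaving them out. It was not run for exp4 or the chemostat minus batch difference. Leaving out 1 chemostat library gave 0 to 3 called members and 2 to 20 called strain comparisons, with both low values reached without a 2N library. Leaving out single libraries of exp4 was not run for A20 and A25, which have 1 each. The 4 members that differed in exp4 became 2 with centring and 0 without the variance trend. Without rescaling, called members were 1 for the chemostat minus batch difference, 0 for 10 to 12 h against 0 to 4 h, 0 for 14 h against 10 to 12 h and 9 for 22 to 26 h against 18 to 20 h. Signs that turned without rescaling were those of SOD1 (-0.69) and TRX2 (-0.083) at 22 to 26 h against 0 to 4 h. With centring they were those of TRX2 in the dilution populations (-0.094), TSA1 in the Tsai euploid population against WT (-0.027) and SOD2 in exp6 against exp5 (-0.00064). Within single experiments, batch culture differences that were not called turned for GPX1 in exp1 (-1.29), TSA2 (1.01) and CCP1 (-0.18) in exp2, and SOD2 (-0.20) and GPX2 (-0.025) in exp3. Among chemostat libraries of the 2N code they turned for TRX2 (0.11) and GPX1 (0.36). Leaving out 1 library moved GPX1 between -0.37 and 0.77 in batch culture and between -0.49 and 0.16 in the chemostat, and GPX2 between -0.063 and 0.43 there. The cause was not tested. Few 2N libraries, and low levels of GPX1, GPX2 and TSA2 in total RNA sets, limit the precision of those comparisons.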

Other observations

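The 3 libraries of W303 haploids treated with NaCl had 177, 320.2 and 290.5 rescaled TPM of CTT1 and 8.87, 4.35 and 4.16 of CTA1. They had 255, 382 and 347 of SOD1, 102, 99.3 and 76.8 of SOD2, 302, 502 and 341 of TSA1 and 91.4, 61.0 and 58.9 of TRX2. GPX1 had 4.87, 7.14 and 0, GPX2 0, 7.35 and 0, TSA2 8.14, 6.00 and 5.75 and CCP1 27.7, 43.8 and 27.2, with each 0 a gene listed at 0. An untreated W303 culture was not analysed here, so these are levels without a comparison. Before rescaling, these libraries held 14.0% to 20.5% of the full TPM total in the genes of the table.

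In exp4, CTT1 spanned -2.21 to 2.03 among the 10 strains, each against the mean of the others. The lowest was A22 and the highest A36, and both were called. Without the variance trend neither was (adjusted p = 0.0824 for A22 and 0.0557 for A36). Of 16 fits without 1 library, 14 ended the call of A22 and 3 that of A36, with adjusted p up to 0.385 and 0.266.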
